A study of Arabidopsis thaliana with 18 samples.

Results

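The genes described here are 10 components of the salicylic acid response of Arabidopsis thaliana, chosen by gene identifier from a count table of 37336 gene rows. They are 3 receptor genes, NPR1 (AT1G64280), NPR3 (AT5G45110) and NPR4 (AT4G19660). With them are 3 genes of small NPR1-interacting proteins, NIMIN1 (AT1G02450), NIMIN2 (AT3G25882) and NIMIN3 (AT1G09415), and 4 genes of TGA transcription factors, TGA2 (AT5G06950), TGA3 (AT1G22070), TGA5 (AT5G06960) and TGA6 (AT3G12250). RNA sequencing was done on rosettes of plants 21 days after sowing, moved to soil at day 14 and kept at 21 °C under 16 h of light and 8 h of dark, with 6 to 10 plants pooled in each library. The accessions Ler (Ler-0 in the labels) and C24 as wild type, their hybrid C24 x Ler, and Ler with the NahG transgene (Ler NahG) had 3 libraries each. There were 2 libraries each of a further wild-type set, C24B, and of the separate C24 lines with the transgene, C24 NahG 2 and C24 NahG 3. The C24 lines were sequenced at a later stage and the study set them against C24B only. Groups were therefore contrasted only within a stage, and the comparison of the transgene effect between accessions sets differences made within each stage against each other. NahG is a bacterial salicylate hydroxylase that turns salicylic acid into catechol. The labels give neither the promoter that drives the transgene nor how many lines Ler NahG stands for, and the transgene itself was not analysed here. Replicates are pools of different plants, so the p-values cover the spread between such pools.

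NPR1 is a salicylic acid receptor that moves to the nucleus and acts as a coactivator of defence genes. NPR3 and NPR4 bind the same hormone and act mainly as repressors of those genes when the hormone is scarce. None of the 3 proteins binds a specific DNA site itself, and the TGA factors, bZIP proteins that recognise the element TGACG, bring them to promoters such as that of PR1. NIMIN1 and NIMIN2 bind the end of NPR1 that follows its ankyrin repeats and NIMIN3 binds its front part, and raised levels of NIMIN1 dampen PR1 induction. NIMIN1 and NIMIN2 are themselves induced by salicylic acid, TGA2, TGA5 and TGA6 act redundantly in systemic acquired resistance, and TGA3 adds to basal resistance.

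The first-stage libraries held 22446656 to 25706088 reads in genes and the later ones 28132721 to 32465711. Levels are given as CPM, read counts scaled to library size with TMM factors within a stage. PR1, the usual readout of salicylic acid signalling, checked the transgene labels. It stood at 2368 to 2869 CPM in C24, 3.25 to 28.3 in Ler, 0.988 to 1.77 in Ler NahG and 4.83 to 10.2 in the hybrid, and in the later stage at 738.2 to 1090 in C24B, 0.419 to 0.522 in C24 NahG 2 and 0.308 to 0.369 in C24 NahG 3. The transgenic libraries were thus the lowest of their stage in each case. Leaf markers were high in every library, with RBCS1A at 13690 CPM or more. The 5 floral organ markers summed to 70.7 to 125.2 CPM in Ler and 62.2 to 107.5 in Ler NahG, but to 1.79 to 5.68 in C24 and 4.39 to 5.95 in the hybrid. The 5 shoot apex markers summed to 41.9 to 46.5 CPM in C24, 21.1 to 121.4 in Ler, 19.6 to 117.8 in Ler NahG and 0.306 to 2.30 in the hybrid. In C24B these apex markers summed to 3.15 CPM in replicate 1 and 47.3 in replicate 2, against 46.1 to 78.8 in the lines. The part that these tissue differences play in the results on the 10 genes was not tested. The root hair markers COBL9 and EXPA7 were at 0 reads in C24, the hybrid and both lines, while the third root marker, PYK10, stood at 282.5 to 403.1 CPM in C24, 52.5 to 95.7 in Ler, 54.1 to 81.8 in Ler NahG and 80.4 to 130.9 in the hybrid. In the later stage PYK10 had 165.1 and 336 CPM in C24B, 350.8 and 436.2 in C24 NahG 2, and 562.6 and 568 in C24 NahG 3.

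The promoters shown are those of NPR4, NIMIN1 and NIMIN2, since these 3 genes were called lower in all 3 contrasts of NahG plants with their control. Each sequence is the 250 bases before the gene start in the RefSeq annotation of TAIR10.1, read 5′ to 3′ on the strand of the gene, and capitals mark TGACG or its complement CGTCA.
NPR4, chr4:10698812-10699061, minus strand: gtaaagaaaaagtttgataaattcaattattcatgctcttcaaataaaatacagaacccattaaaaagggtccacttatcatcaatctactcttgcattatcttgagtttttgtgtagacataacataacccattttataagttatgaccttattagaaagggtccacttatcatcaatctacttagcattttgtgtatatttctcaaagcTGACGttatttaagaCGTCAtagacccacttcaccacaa
NIMIN1, chr1:498540-498789, minus strand: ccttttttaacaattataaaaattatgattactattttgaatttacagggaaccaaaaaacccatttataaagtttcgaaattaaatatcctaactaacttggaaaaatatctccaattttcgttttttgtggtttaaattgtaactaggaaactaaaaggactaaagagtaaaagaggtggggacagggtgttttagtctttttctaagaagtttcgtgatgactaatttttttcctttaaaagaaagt
NIMIN2, chr3:9471040-9471289, minus strand: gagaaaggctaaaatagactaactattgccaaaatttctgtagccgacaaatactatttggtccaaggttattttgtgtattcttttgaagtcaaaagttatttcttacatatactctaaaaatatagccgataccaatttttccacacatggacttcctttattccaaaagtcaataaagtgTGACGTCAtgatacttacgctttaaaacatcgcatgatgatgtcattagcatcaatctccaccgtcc
Counted back from the gene start, with -1 as the base before it, NPR4 held TGACG at -39 and its complement at -24. In NIMIN2 the matches at -67 and -64 overlap and form the palindrome TGACGTCA, whereas NIMIN1 had no match in this window. On either strand, 4 of the 10 genes (NPR3, NPR4, NIMIN2 and TGA6) held TGACG within 250 bases, against 18.6% of 27443 promoters of the same length. Within 1000 bases it was 7 of 10 genes against 54.1% of promoters, and there NIMIN1 held 2 matches, NPR4 2 and NIMIN2 3. The element TTGAC, the core that WRKY factors bind, lay in 5 of 10 genes against 44.9% of promoters of 250 bases, and in TGA6 1 match of each element overlaps as TTGACG. These matches describe letters in a window and not bound sites.

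NPR1 (chromosome 1, 23852748 to 23855658, minus strand) had 51.0, 50.6 and 48.0 CPM in C24, 23.6, 20.1 and 21.4 in Ler, 18.1, 17.9 and 18.5 in Ler NahG, and 38.2, 34.9 and 33.0 in the hybrid. In the later stage it had 49.3 and 44.5 CPM in C24B, 19.1 and 19.4 in C24 NahG 2, and 17.2 and 16.9 in C24 NahG 3. No libraries of neighbouring groups overlapped in either stage, and the first-stage order from low to high was Ler NahG, Ler, the hybrid and C24. Here and for the genes below, such separation was not counted over all genes, and the later groups hold only 2 libraries each. For NPR1 neither Ler NahG against Ler (adjusted p = 0.366) nor C24 NahG 3 against C24 NahG 2 (adjusted p = 0.999) was called. Exons of NPR1 overlap 2 genes of the opposite strand (AT1G64270 and AT1G08667). Whether the counting used strand is not stated in the labels. The deposited counts keep ambiguous reads, 3.47 to 4.85% of reads in a library, apart from the genes. Whether the NPR1 counts lost or gained reads by the overlap cannot be told.

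NPR3 (chromosome 5, 18228768 to 18231588, plus strand) had 73.0, 59.0 and 58.0 CPM in C24, 35.8, 18.5 and 26.8 in Ler, 12.8, 11.4 and 17.5 in Ler NahG, and 54.8, 51.3 and 29.7 in the hybrid. It had 46.0 and 63.2 CPM in C24B, 19.1 and 19.7 in C24 NahG 2, and 19.5 and 15.3 in C24 NahG 3. Its replicates spread more than those of NPR1 and NPR4 in the first-stage groups, and the lowest hybrid library lay below the highest Ler library. NPR4 (chromosome 4, 10696266 to 10698811, minus strand) had 65.5, 63.0 and 65.9 CPM in C24, 31.3, 24.9 and 27.9 in Ler, 12.2, 13.4 and 11.9 in Ler NahG, and 56.8, 55.0 and 47.9 in the hybrid. It had 71.4 and 57.4 CPM in C24B, 14.2 and 15.5 in C24 NahG 2, and 13.9 and 13.7 in C24 NahG 3. For NPR4 no neighbouring groups overlapped, though C24 NahG 3 against C24 NahG 2 was not called (adjusted p = 0.999). Its means in Ler NahG, C24 NahG 2 and C24 NahG 3 were 12.5, 14.9 and 13.8 CPM. The first of these was scaled in another stage and was not contrasted with the lines.

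NIMIN1 (chromosome 1, 497917 to 498539, minus strand, a single exon) had 32.3, 36.5 and 34.7 CPM in C24, 3.53, 4.30 and 6.71 in Ler, and 9.75, 10.3 and 6.44 in the hybrid. In Ler NahG it had 0.288, 0.137 and 0.506 CPM, which were 7, 3 and 12 reads. The highest Ler library lay just above the lowest hybrid library, and otherwise the groups were apart. In the later stage it had 15.3 and 16.8 CPM in C24B, 2 and 9 reads in C24 NahG 2, and 1 and 4 reads in C24 NahG 3, so the transcript was close to the detection limit in both lines. NIMIN2 (chromosome 3, 9470357 to 9471039, minus strand) had 42.2, 52.0 and 37.4 CPM in C24, 3.40, 1.18 and 1.47 in Ler, 0.288, 0.229 and 0.127 in Ler NahG, and 11.7, 8.43 and 5.64 in the hybrid. It had 15.4 and 19.0 CPM in C24B, 0.491 and 1.45 in C24 NahG 2, and 0.788 and 0.338 in C24 NahG 3. The 4 first-stage groups of NIMIN2 were fully apart, while its levels in the lines overlapped each other.

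NIMIN3 (chromosome 1, 3037754 to 3038408, minus strand) had 36.6, 39.2 and 34.4 CPM in C24, 15.2, 11.0 and 13.1 in Ler, 9.60, 9.80 and 9.62 in Ler NahG, and 31.9, 27.7 and 21.8 in the hybrid. It had 19.8 and 20.3 CPM in C24B, 11.0 and 10.7 in C24 NahG 2, and 11.4 and 9.69 in C24 NahG 3. Unlike the other NIMIN genes it kept a level near 10 CPM in every transgenic library. Wild-type C24 and C24B are listed side by side and were not contrasted, since they belong to different stages. Their averages, C24 first, were 34.5 and 16.1 CPM for NIMIN1, 43.8 and 17.2 for NIMIN2 and 36.7 and 20.1 for NIMIN3. For the receptors they were 49.9 and 46.9 CPM for NPR1, 63.3 and 54.6 for NPR3, and 64.8 and 64.4 for NPR4.

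TGA3 (chromosome 1, 7789133 to 7792139, plus strand) had 76.2, 70.4 and 77.6 CPM in C24, 43.0, 40.7 and 38.2 in Ler, 43.6, 40.4 and 35.4 in Ler NahG, and 54.8, 51.8 and 51.4 in the hybrid. It had 70.5 and 57.3 CPM in C24B, 37.4 and 35.4 in C24 NahG 2, and 40.7 and 39.4 in C24 NahG 3. Ler and Ler NahG overlapped, and the hybrid lay clear of both parents. TGA5 (chromosome 5, 2154746 to 2157719, plus strand) had 20.9, 18.9 and 20.02 CPM in C24, 9.79, 10.5 and 9.92 in Ler, 9.47, 8.70 and 10.7 in Ler NahG, and 13.4, 11.4 and 11.6 in the hybrid. It had 21.0 and 18.3 CPM in C24B, 13.5 and 15.1 in C24 NahG 2, and 13.0 and 17.2 in C24 NahG 3. Again Ler and Ler NahG overlapped, and C24 stood above all other groups of its stage.

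TGA2 (chromosome 5, 2150840 to 2154586, plus strand), whose 3′ neighbour on the same strand is TGA5, ranged from 11.9 to 15.1 CPM over the 12 first-stage libraries and from 10.0 to 13.7 over the later 6. TGA6 (chromosome 3, 3905423 to 3908983, plus strand) ranged from 4.09 to 5.72 CPM in the first stage and from 3.08 to 5.37 in the later one. All neighbouring first-stage groups of TGA2 and of TGA6 overlapped. In the later stage, with 2 libraries a group, neighbouring groups were apart, but none of these differences was called (adjusted p = 0.199 or more). Means were 10.8, 12.4 and 13.4 CPM for TGA2 and 3.47, 4.40 and 4.95 for TGA6 in C24 NahG 3, C24 NahG 2 and C24B in turn. Exons of TGA6 overlap 2 genes of the opposite strand (AT3G02485 and AT3G12260). Whether the TGA6 counts lost or gained reads by this overlap cannot be told either. No exon stretch of 50 or 100 bases of any of the 10 genes was found elsewhere in the TAIR10.1 genome.

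**Figure D1:**
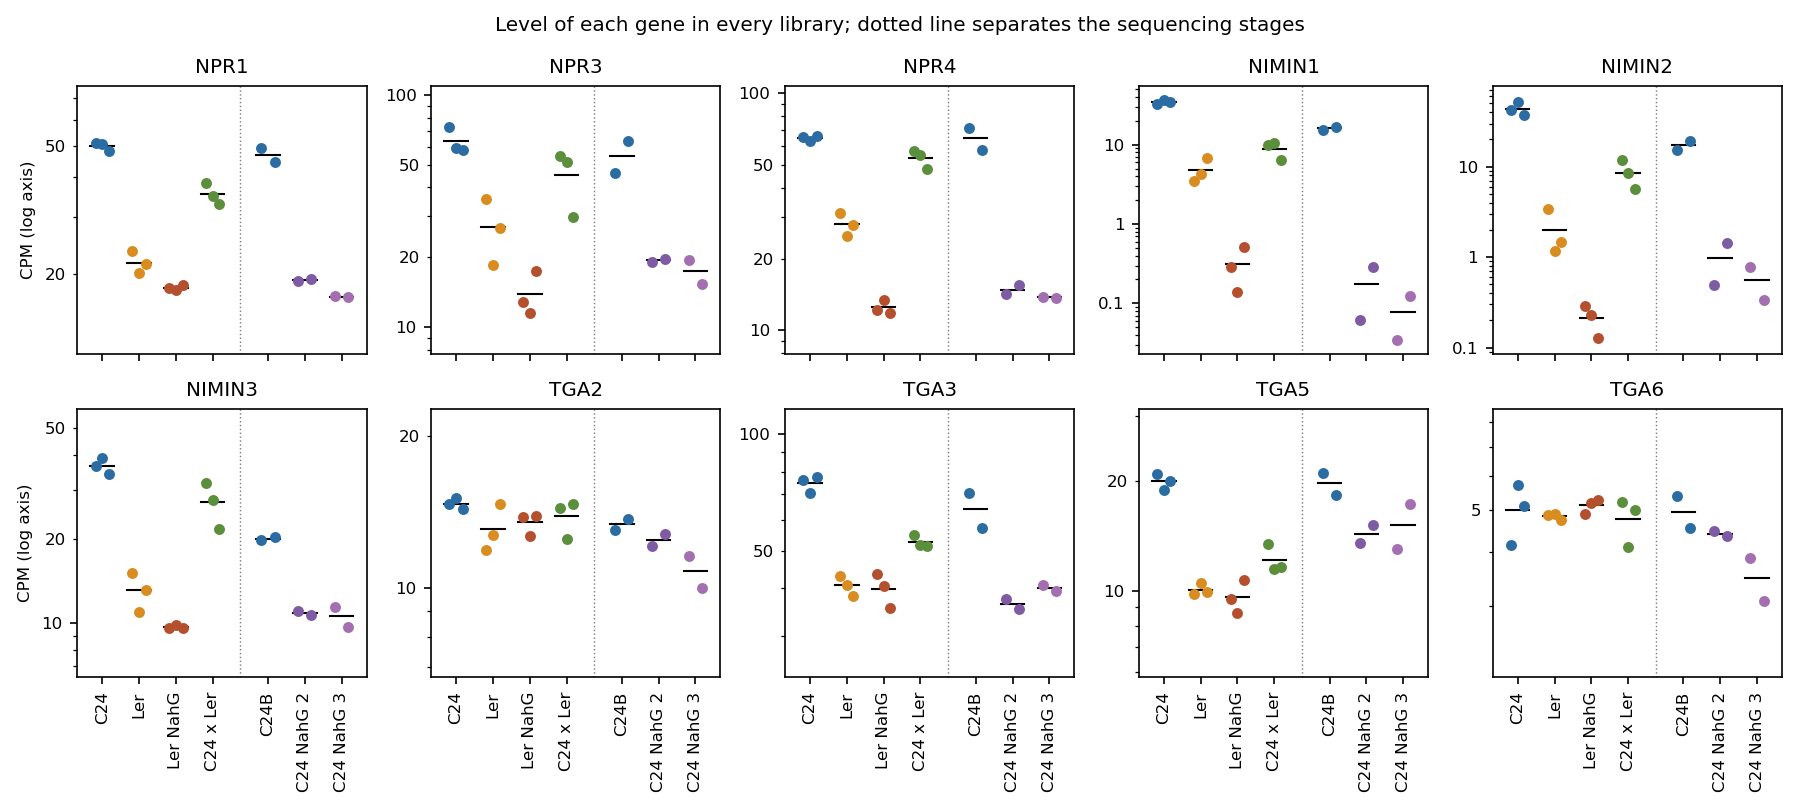
CPM of each of the 10 genes (log axis, with its own range in each panel) in every library of the 7 groups, with points for libraries, bars for group means and a dotted line between the sequencing stages. NPR1, NPR3, NPR4 and the NIMIN genes are lowest in the transgenic groups, NIMIN1 and NIMIN2 down to 0.506 CPM or less and 1.45 CPM or less, while TGA2 and TGA6 stay within 10.0 to 15.1 and 3.08 to 5.72 CPM.

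Set against transcript length, as CPM per kilobase of exon, the order of the genes differed between groups. In C24 the NIMIN genes led, with NIMIN2 at 64.2 ± 10.9 (SD, n = 3), NIMIN3 at 56.1 ± 3.72 and NIMIN1 at 55.4 ± 3.36 CPM per kilobase, ahead of TGA3 at 37.5 ± 1.90. In Ler NahG TGA3 led at 19.99 ± 2.05 CPM per kilobase and NIMIN3 followed at 14.8 ± 0.17, whereas NIMIN1 and NIMIN2 were last at 0.499 ± 0.30 and 0.314 ± 0.12. TGA6 was the lowest of the 4 TGA genes in every group, at 1.47 to 2.16 CPM per kilobase on average.

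The first contrast asked how plants with the transgene differ from wild type in Ler. In Ler NahG, 3 of the 10 genes fell against Ler and 0 rose at an adjusted p under 0.05, while 0.502% of the 20325 genes tested fell and 0.0886% rose. The log2 fold change of NIMIN1 was -3.93, a 15.2-fold difference (SE 0.37, adjusted p = 0.000352). That of NIMIN2 was -3.18 (SE 0.57, adjusted p = 0.029), or 9.06-fold. For NPR4 it was -1.16 (SE 0.10, adjusted p = 0.000162), or 2.24-fold. The NIMIN2 call ended on leaving out any 1 of the Ler NahG libraries (adjusted p = 0.119 to 0.143) or hybrid replicate 2 (adjusted p = 0.0537), and with only the compared groups in the fit NPR4 alone was called. NPR3 differed by -0.95 (SE 0.27, adjusted p = 0.259), NIMIN3 by -0.43 (SE 0.15, adjusted p = 0.401) and NPR1 by -0.26 (SE 0.08, adjusted p = 0.366). None of these 3 differences passed the test. Their libraries did not overlap between the groups, which hold 3 libraries each, but such separation was not counted over all genes. DESeq2, which called 1.37% of genes tested in this contrast, called NPR3 (adjusted p = 0.0356). The 4 TGA genes differed by -0.06 to 0.08, with 95% intervals that together reached from -0.29 to 0.40. Of the floral organ and shoot apex markers 0 were called in this contrast, and 0 were below an unadjusted p of 0.05. Of the 3 leaf markers 0 were called and 1 was below it, LHCB2.1 at 0.56 (95% interval 0.09 to 1.04, unadjusted p = 0.0235).

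In C24 the same question was put to a pair of transgenic lines, which share C24B as their control. In C24 NahG 2, 7 of the 10 genes fell, against 7.1% of the 20112 genes tested, and in C24 NahG 3 the same 7 genes fell, against 8.16%. They were all 3 receptors, all 3 NIMIN genes and TGA3. The log2 fold changes of NIMIN1 in lines 2 and 3 were -6.501 and -7.57 (SE 0.47 and 0.53, adjusted p = 0.000228 and 0.000159), values that rest on 11 and 5 reads in all. Those of NIMIN2 were -4.15 and -4.94 (SE 0.48 and 0.51, adjusted p = 0.0019 and 0.00101). Among the receptors the falls were ordered NPR4, NPR3, NPR1 in either line. In lines 2 and 3 in turn, NPR4 was at -2.12 and -2.22 (SE 0.14 for each) and NPR3 at -1.49 and -1.65 (SE 0.18 and 0.19, adjusted p = 0.00252 and 0.00146). NPR1 was at -1.29 and -1.46 (SE 0.11 and 0.12, adjusted p = 0.000522 and 0.000271). The smallest of the 7 falls were those of NIMIN3, at -0.89 (adjusted p = 0.00857) and -0.93 (adjusted p = 0.00627), and of TGA3, at -0.81 (adjusted p = 0.00954) and -0.67 (adjusted p = 0.0185).

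TGA5 differed by -0.46 (95% interval -0.86 to -0.06, adjusted p = 0.169) in line 2 and by -0.38 (-0.78 to 0.02, adjusted p = 0.2) in line 3, and neither TGA2 nor TGA6 was called. The NIMIN3 call ended without either library of line 2 (adjusted p = 0.0853 and 0.0983) and without replicate 2 of line 3 (adjusted p = 0.0831). The TGA3 call ended without either library of line 2 (adjusted p = 0.0765 and 0.0983) or of line 3 (adjusted p = 0.113 and 0.186). It also ended in line 3 without replicate 1 of C24B (adjusted p = 0.0568), the library low in shoot apex markers, while without it all 7 genes remained called in line 2 and the other 6 in line 3. Between the lines themselves, 0 of the 10 genes and 0% of all genes tested differed by edgeR's quasi-likelihood test. At an unadjusted p under 0.05 it was 0 of the 10 and 590 of all genes, and DESeq2 called 13 genes, or 0.0646%. The widest interval was that of NIMIN1, from -2.98 to 0.85, and for NPR1, NPR3, NPR4 and NIMIN3 the intervals lay within -0.58 to 0.29. Of the tissue markers PYK10 alone was called between the lines and C24B, higher in C24 NahG 3 by 1.17 (adjusted p = 0.0498).

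**Figure D2:**
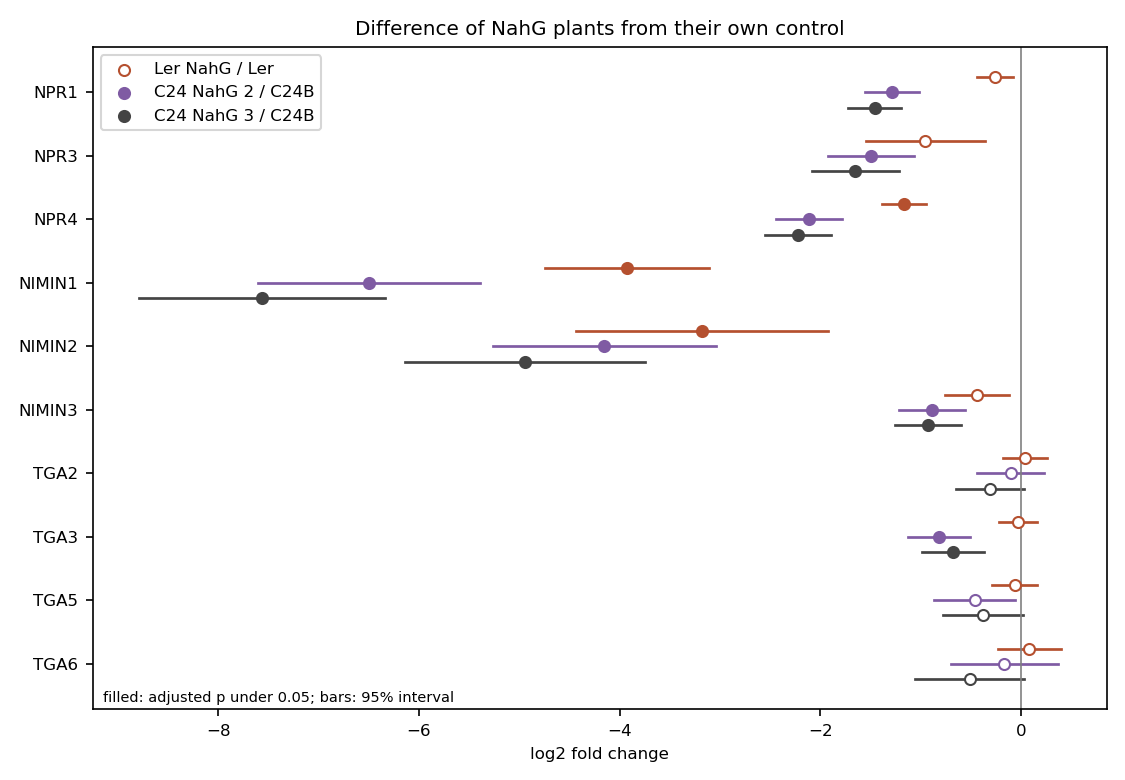
Log2 fold change of each gene in the transgenic plants against their own control, with 95% intervals and filled points at an adjusted p under 0.05. NIMIN1 and NIMIN2 lie farthest from 0 in each of the 3 contrasts, at -3.93 and -3.18 in Ler NahG, and the TGA genes other than TGA3 lie between -0.51 and 0.08 with open points.

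The transgene's effect was also compared between accessions, as the mean effect of the C24 lines minus the effect in Ler, in a fit of all 18 libraries. It was stronger in C24 for 4 of the 10 genes, where 6.78% of the 21061 genes tested differed in that direction. NPR1 had the most certain difference, -1.11 (SE 0.11, adjusted p = 4.87e-05). TGA3, which differed by -0.03 between Ler NahG and Ler, gave -0.71 (SE 0.14, adjusted p = 0.00487). NPR4 gave -0.998 (SE 0.15, adjusted p = 0.001) and NIMIN1 gave -3.09 (SE 0.69, adjusted p = 0.0121), and the NIMIN1 call ended without Ler NahG replicate 3 (-2.56, adjusted p = 0.0725). For NPR3 (-0.61, 95% interval -1.39 to 0.17) and NIMIN2 (-1.36, -3.28 to 0.57) no difference between accessions was called. Accession, sequencing stage and transgenic line change together here and cannot be told apart. Of the tissue markers the floral gene AG was called in this comparison (2.16, adjusted p = 0.0316). The AG value rests on few reads, 8 and 5 in C24B, 38 and 20 in C24 NahG 2, and 31 and 19 in C24 NahG 3. Its bearing on the 4 genes was not tested. In bulk rosettes, fewer cells of a type and less RNA per cell cannot be told apart either.

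Between the wild-type accessions, C24 was higher than Ler for 8 of the 10 genes and lower for 0, while 22.6% of genes tested were higher in C24, 19.8% were lower and 42.5% differed in either direction. The median log2 difference was 1.20 over the 10 genes and -0.01 over all genes tested. NIMIN2 was 22.0-fold higher (log2 4.46, SE 0.36, adjusted p = 1.57e-06) and NIMIN1 7.09-fold higher (log2 2.83, SE 0.26, adjusted p = 3.94e-06). The 3 receptors differed by nearly the same amount, with log2 values of 1.20 for NPR1 (SE 0.08, adjusted p = 4.64e-07), 1.23 for NPR3 (SE 0.26, adjusted p = 0.00277) and 1.21 for NPR4 (SE 0.10, adjusted p = 1.61e-06). NIMIN3 was higher by 1.49 (SE 0.14, adjusted p = 6.2e-06), TGA5 by 0.99 (SE 0.10, adjusted p = 1.04e-05) and TGA3 by 0.88 (SE 0.09, adjusted p = 8.74e-06). TGA2 differed by 0.17 (95% interval -0.05 to 0.38) and TGA6 by 0.05 (-0.27 to 0.36). All 5 floral organ markers were lower in C24 in this contrast, with the summed levels given above, as were the apex marker WUS, the leaf marker LHCB2.1 (-1.58) and the root marker COBL9. PYK10 was higher in C24 by 2.28 (adjusted p = 3.05e-05). Reads were aligned to TAIR10, a reference of another accession, so a difference in mapping and a difference in level between C24 and Ler cannot be told apart.

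The hybrid mean lay between the parents for 9 of the 10 genes, all but TGA6, a count not made over all genes. The parents themselves were not called different for TGA2 (adjusted p = 0.199) or TGA6 (adjusted p = 0.823). Against C24, 7 genes were lower, where 19.3% of genes tested were. They were NIMIN2 (-2.35, SE 0.31, adjusted p = 2e-04), NIMIN1 (-1.97, SE 0.25, adjusted p = 0.000122), TGA5 (-0.71, SE 0.10, adjusted p = 0.000284), TGA3 (-0.51), NPR1 (-0.50), NIMIN3 (-0.44) and NPR4 (-0.28, adjusted p = 0.0372). In this contrast all 3 leaf markers were higher in the hybrid (0.66 to 1.49), as were 2 floral organ markers, while PYK10 (-1.62, adjusted p = 0.000693) and 3 shoot apex markers were lower. The last pair of the 7 genes was the least certain, since leaving out 1 library ended the call of NPR4 in 5 of 12 cases and of NIMIN3 in 4 of 12. Against Ler, 6 genes were higher, where 15.8% of genes tested were, and all 4 shoot apex markers tested, all 5 floral organ markers and COBL9 were lower. NIMIN2 was higher by 2.11 (SE 0.36, adjusted p = 0.00122), NIMIN3 by 1.05 (SE 0.14, adjusted p = 0.000285), NPR4 by 0.93 (SE 0.10, adjusted p = 5.04e-05), NPR1 by 0.70, TGA3 by 0.37 and NIMIN1 by 0.86 (adjusted p = 0.0249). The NIMIN1 call ended without Ler replicate 1 or 2 or without hybrid replicate 1 or 2 (adjusted p = 0.0577 to 0.0939). NPR3 gave 0.75 (SE 0.26, adjusted p = 0.0516), which DESeq2 called (adjusted p = 0.029) along with 32.2% of genes tested, as did the fit with no filter on low counts (0.0464) and the fit with the replicate number as a block (0.0431).

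Set against the mid-parent, the mean of the parents on the log2 scale, NPR4 alone was called, higher by 0.32 (SE 0.08, adjusted p = 0.0149), where 15.5% of genes tested were higher and 11.5% lower. DESeq2 called 30.1% of genes tested and 2 of the 10 genes in this contrast. The NPR4 call ended without hybrid replicate 1 (adjusted p = 0.0966) or 2 (adjusted p = 0.0702). As a share of the arithmetic mid-parent, the hybrid mean was 98.8% for NPR1, 100.3% for NPR3, 114.7% for NPR4 and 108.9% for NIMIN3, but 44.9% for NIMIN1 and 37.5% for NIMIN2. On the log2 scale, where the parents are averaged as ratios, NIMIN2 gave -0.12 (95% interval -0.75 to 0.50) and NIMIN1 gave -0.55 (-1.03 to -0.08, adjusted p = 0.0821). Both genes stood well below the arithmetic mid-parent, while neither was called against the mid-parent on the log2 scale. TGA5 stood at 81.1% of the arithmetic mid-parent (log2 -0.22, adjusted p = 0.0866) and TGA3 at 91.3%. All 3 leaf markers were higher in the hybrid than the mid-parent, RBCS1A by 0.64, RCA by 0.58 and LHCB2.1 by 0.70 (adjusted p = 0.0211, 0.0382 and 0.016). Of the shoot apex markers 3 and of the floral organ markers 4 were lower, with the hybrid's summed apex level of 0.306 to 2.30 CPM given above.

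**Figure D3:**
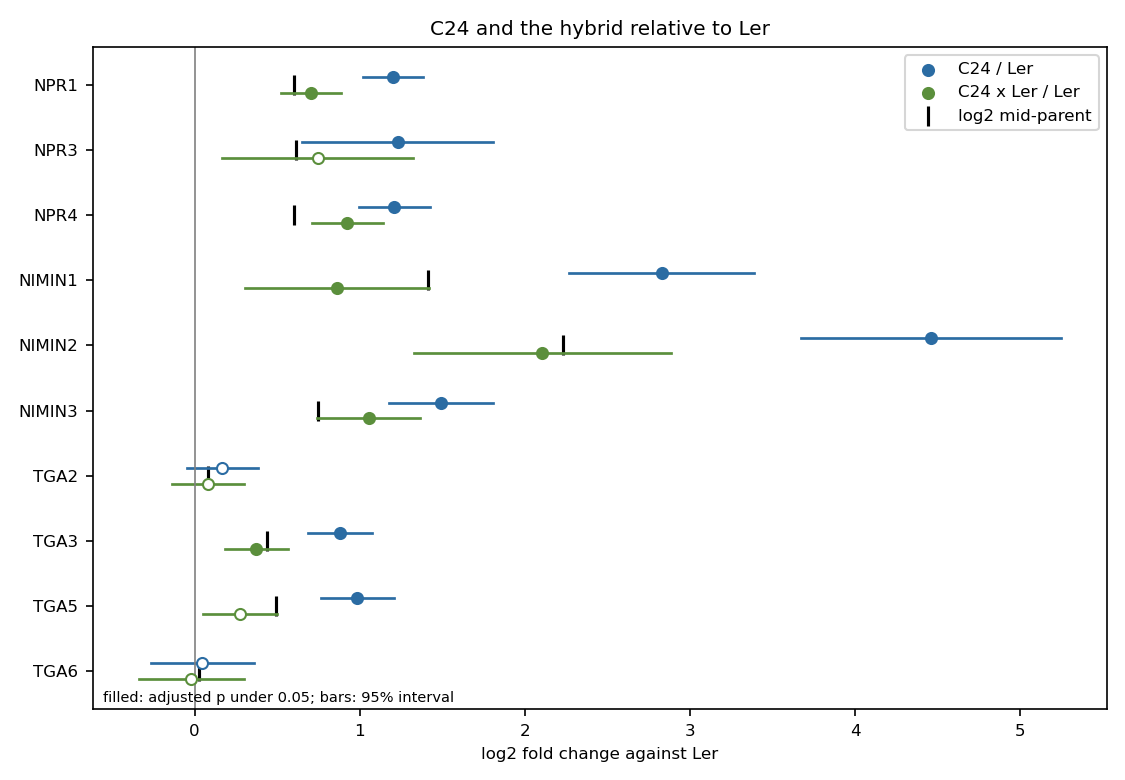
Log2 fold change of C24 and of the hybrid against Ler for each gene, with 95% intervals, filled points at an adjusted p under 0.05 and a bar at the mean of the parents. C24 lies at 1.20 to 1.23 for the 3 receptors and at 4.46 for NIMIN2, and the hybrid lies to the right of the mid-parent bar by 0.32 for NPR4.

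The hybrid was also set against Ler NahG, where the markers called were lower, namely all 4 shoot apex markers tested, all 5 floral organ markers, COBL9 and LHCB2.1. It was higher for 8 of the 10 genes, where 13.4% of genes tested were higher, and TGA2 and TGA6 were again the exceptions. NIMIN2 and NIMIN1 were higher by 5.29 and 4.79, NPR4 by 2.09 (SE 0.10, adjusted p = 9.91e-08), NPR3 by 1.70, NIMIN3 by 1.49, NPR1 by 0.96, TGA3 by 0.40 and TGA5 by 0.34 (adjusted p = 0.0314). The TGA5 call ended on leaving out Ler NahG replicate 1 or 2 or hybrid replicate 1 (adjusted p = 0.0837 to 0.126) and with only the compared groups in the fit (0.112).

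The make-up of each family also shifted between groups, a description chosen after the values were seen and given with no test. NIMIN3 took 31.99% ± 1.15 of NIMIN reads in C24 (SD, n = 3), 65.6% ± 3.64 in Ler, 61.2% ± 2.66 in the hybrid and 94.9% ± 1.36 in Ler NahG. It took 37.7% ± 2.12 in C24B (n = 2), 90.6% ± 6.54 in C24 NahG 2 and 94.4% ± 1.54 in C24 NahG 3. No transgenic library overlapped any wild-type library in this share, which in wild type reached 68.6% at most and in transgenic plants began at 86.0%. The separation follows from the low NIMIN1 and NIMIN2 reads given above and adds no evidence of its own. NIMIN3 itself did not rise in transgenic plants. Among NPR reads, NPR1 took 28.1% ± 1.23 in C24, 28.6% ± 2.83 in Ler and 26.7% ± 2.75 in the hybrid, but 40.8% ± 1.90 in Ler NahG. The share was 28.3% ± 1.83 in C24B, 35.9% ± 0.61 in C24 NahG 2 and 35.4% ± 2.01 in C24 NahG 3. Among TGA reads TGA3 took the most in every group, from 53.9% ± 2.23 in C24 NahG 2 to 65.3% ± 1.22 in C24. Dividing the reads by exon length left the NIMIN3 shares at 31.99% in C24 and 94.8% in Ler NahG.

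**Figure D4:**
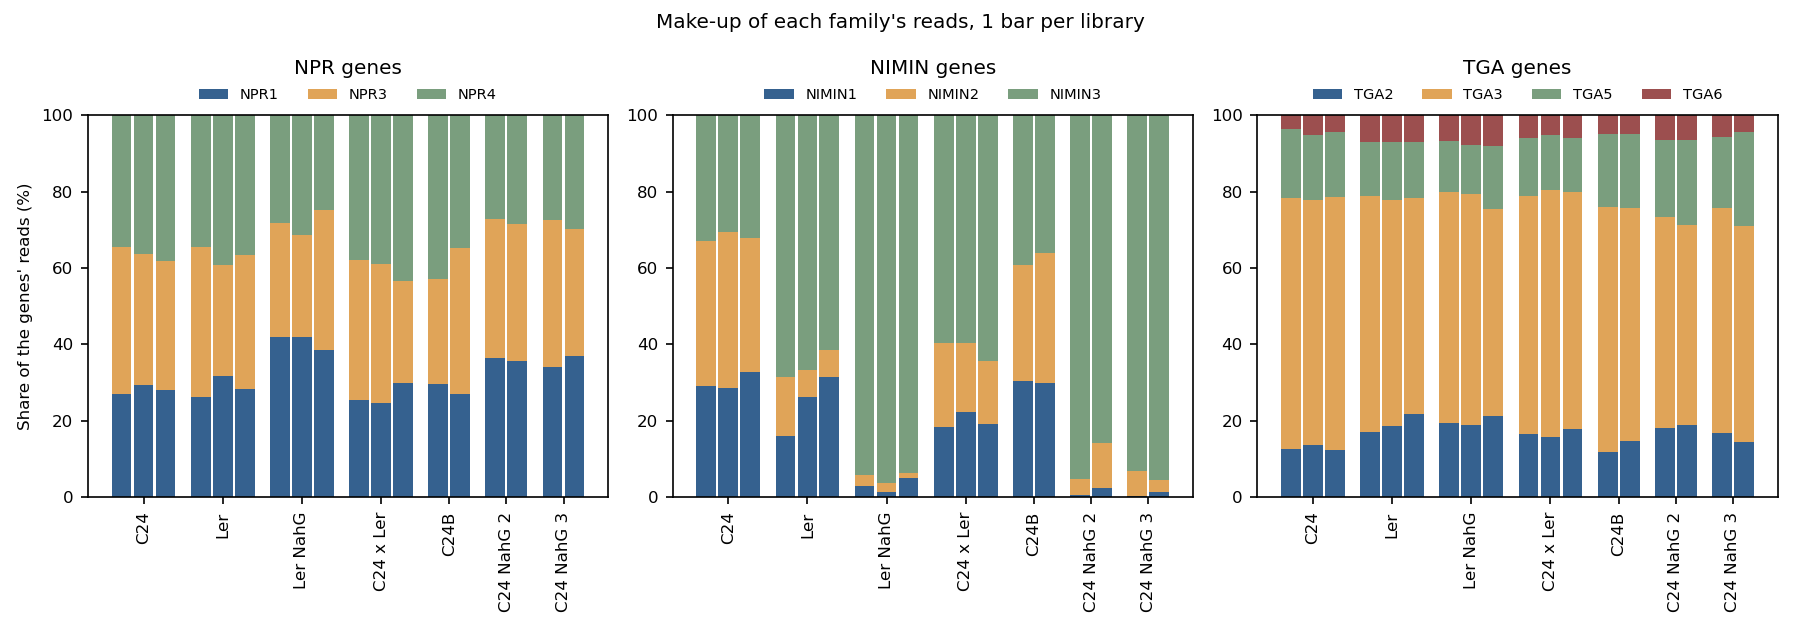
Share of each member in the reads of its family (%), with 1 stacked bar for each library. NIMIN3 fills 86.0% or more of the NIMIN bar in every transgenic library and at most 68.6% in wild type, and the NPR1 part is taller in transgenic than in wild-type bars.

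Across the 18 libraries, after the mean of each stage was removed, log2 CPM of the receptors and NIMIN genes correlated at Pearson r from 0.848 to 0.962 with each other. The libraries share groups, so these values mostly describe differences between groups and carry no p. TGA3 correlated with those 6 genes at 0.825 to 0.945 and TGA5 at 0.754 to 0.856. TGA2 reached 0.485 to 0.597 and TGA6 0.137 to 0.306 with them, and the pair TGA2 and TGA6 gave 0.601. Of the 21051 other genes searched, LURP1, a gene induced late on infection by a downy mildew, was most like NIMIN1 (r = 0.975), followed by ANK and DMR6 (0.973 each), the last an enzyme that hydroxylates salicylic acid. SIB1, a protein that binds plastid sigma factors and WRKY factors, was at 0.994 with NPR4, beside AT3G22235 (0.994) and AT2G41090 (0.993). The genes most like NIMIN2 were AT5G52750 (0.994), AT4G01700 (0.992) and AT3G62780 (0.991). For NPR3 they were AT3G15760 (0.976), AT5G03355 (0.976) and NAC004 (0.966).

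**Figure D5:**
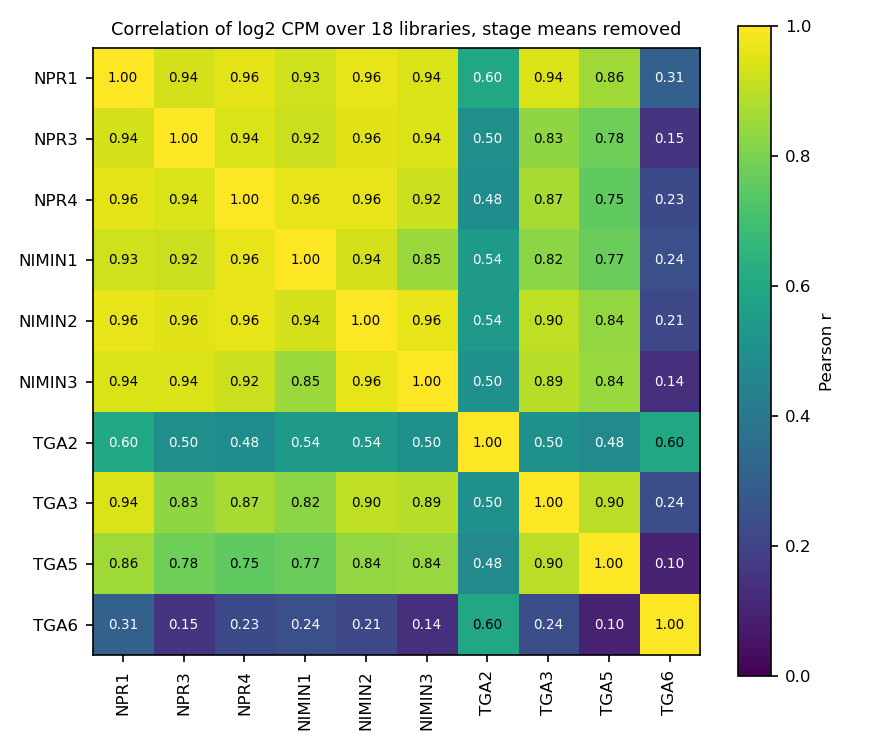
Pearson r between log2 CPM of each pair of the 10 genes over 18 libraries, with stage means removed. The receptors and NIMIN genes form a block of 0.848 to 0.962, TGA3 and TGA5 join it at 0.754 to 0.945, and TGA2 and TGA6 stand apart.

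Around these genes, a list of 14 targets that depend on NPR1 or are bound by NPR proteins was counted, 13 of them tested. In Ler NahG 5 fell and 0 rose, where 0.502% and 0.0886% of all genes tested did, among them the defence regulators WRKY54 (-6.40, SE 0.59, adjusted p = 0.000253) and WRKY70 (-5.42, SE 0.54, adjusted p = 0.000493) and SARD1 (-3.01, SE 0.40, adjusted p = 0.00533), which activates salicylic acid synthesis. The WRKY54 value rests on 9 reads over the Ler NahG libraries. PR1 itself gave -3.28 (SE 0.72, adjusted p = 0.0896) and was not called. The list's median was -1.15, against 0.0025 over all genes tested. WRKY54, WRKY70 and SARD1 stayed called whichever Ler NahG library was left out, the other 2 did not, and 2 targets were called with only the compared groups in the fit. In each C24 line 12 of the 13 fell, against 7.1% of all genes in line 2 and 8.16% in line 3. PR1 was at -10.9 in line 2 and -11.4 in line 3, and WRKY54 at -7.13 and -10.4, the last resting on 5 reads. All 13 were higher in C24 than in Ler, where 22.6% of genes were, and 11 were lower in the hybrid than in C24, where 19.3% were. In the hybrid 7 were higher than in Ler and 0 lower, where 15.8% of genes were higher. Relative to Ler NahG, 10 were higher in the hybrid and 0 lower, where 13.4% of genes were higher. Against the mid-parent 6 targets were lower and 1 was higher, beside 11.5% and 15.5% of genes. PR1 was lower by 4.67 (adjusted p = 0.000481) and WRKY54 higher by 0.90 (adjusted p = 0.0231), beside NPR4 at 0.32.

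Of 8 genes that act on the NPR1 or TGA proteins, 0 were called in Ler NahG (3 at an unadjusted p under 0.05), where 0.502% of all genes fell, and 3 fell in each C24 line, where 7.1% and 8.16% of all genes did. They were the thioredoxin TRX5, which reduces NPR1 (-1.88 and -1.41), SUMO3, a modifier of NPR1 (-3.11 and -2.48), and GRX480, a glutaredoxin that binds TGA factors (-4.44 and -4.32). The GRX480 call in line 3 ended without either library of that line (adjusted p = 0.0517 and 0.0506). The same 3 genes were higher in C24 than in Ler, by 2.37, 5.002 and 3.93, where 22.6% of all genes were. Neither cullin gene nor TRX3 was called between either C24 line and C24B. Of 9 further NPR and TGA family genes, 0 were called in Ler NahG (3 at an unadjusted p under 0.05). In the C24 lines 8 of them were tested and 1 fell in each line, beside 7.1% and 8.16% of all genes. PAN, a factor of flower development, rose in line 3 (1.74, adjusted p = 0.0415, where 2.09% of genes tested rose). The PAN call ended in 5 of 6 cases of leaving out 1 library (adjusted p = 0.0568 to 0.259). NPR2, the closest relative of NPR1, differed by -1.40 (adjusted p = 0.0384) and -1.75 (adjusted p = 0.0157), calls that ended without either library of the line concerned (adjusted p = 0.198 and 0.278 in line 2, 0.0734 and 0.118 in line 3). Between C24 and Ler, 4 of the 9 were higher in C24 and 2 lower, beside 22.6% and 19.8% of all genes. NPR2 was higher in C24 by 3.01 (adjusted p = 2.06e-05), while TGA9 and TGA10, factors of anther development, were lower (-2.41 and -3.59). In the C24 libraries TGA9 had 8, 14 and 7 reads and TGA10 had 1, 4 and 1.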

How the data were processed

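Read counts per gene were deposited by the authors for 18 libraries as whole numbers. Per the submitters' processing notes, reads were aligned with STAR 2.5.3 to TAIR10 and DESeq2 was also used. The sources used here give neither the annotation nor the strand setting. The 5 rows that are not genes, among them the total of reads in genes, were left out. Reads outside genes made up 8.95 to 16.7% of reads in a library. RefSeq names matched 99.2% of 37336 rows. The 10 genes and the lists around them were chosen with earlier results of these data known.

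Counts of the 12 first-stage libraries and of the later 6 were fitted separately, and all 18 together for the difference between accessions, with 1 coefficient per group. C24B was put in the later stage because the study analysed it with the C24 lines. R 4.3.3 with edgeR 4.0.16 was used, with filterByExpr (20325, 20112 and 21061 genes left, all 10 genes among them), TMM and the quasi-likelihood F test. A call is a Benjamini-Hochberg adjusted p under 0.05 over all genes tested. Adjusted p-values are edgeR's unless DESeq2 (1.42.0) is named. The SE is the absolute log2 fold change over the square root of F. Alternatives were DESeq2, RLE size factors, no filter on low counts, the compared groups alone, the replicate number as a block, and leaving out each library in turn. Likeness used log2 CPM with a prior count of 2, and the 3 most similar genes were named for the 4 members with the widest range of group means. List genes were named by lowest adjusted p, at most 4 per list and contrast, with fewer printed where reads were at or near 0. Promoters were read from the RefSeq genome TAIR10.1 with Python 3.11.15, and figures drawn with matplotlib 3.10.9. Protein sequences were not used here.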

Additional observations from a re-analysis of the deposited data

Results flagged for a closer look

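For 4 genes the effect of the NahG transgene differed between accessions by a test of the difference itself, the mean of the C24 lines minus Ler. The log2 differences were -1.11 for NPR1 (SE 0.11, adjusted p = 4.87e-05), -0.998 for NPR4 (SE 0.15, adjusted p = 0.001), -3.09 for NIMIN1 (SE 0.69, adjusted p = 0.0121) and -0.71 for TGA3 (SE 0.14, adjusted p = 0.00487). Mean levels of NPR1 were 19.2 CPM in C24 NahG 2 and 17.1 in C24 NahG 3, beside 18.2 in Ler NahG and 21.7 in Ler. Those of TGA3 were 36.4 and 40.04 CPM in the lines, beside 39.8 in Ler NahG and 40.6 in Ler, and these levels were scaled in separate stages. Accession, sequencing stage and transgenic line cannot be told apart in this comparison.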

How the results depend on the processing

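Of 1570 values of the 10 genes under an alternative, 1497 kept direction and side of the threshold, 36 lost a call, 13 gained one and 24 changed sign. Of the 51 called values 12 lost their call under at least 1 alternative and 0 changed sign. The count of called genes in Ler NahG was 1 with only the compared groups in the fit, and 2 to 3 on leaving out 1 library. Against the mid-parent 2 genes were called by DESeq2, and 0 to 3 on leaving out 1 library, with 3 without Ler replicate 1 and 0 without hybrid replicate 1 or 2.

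Values that changed sign were all uncalled. With no filter on low counts TGA2 was 0.0029 against the mid-parent. On leaving out 1 library, Ler NahG against Ler gave -0.031 to 0.13 for TGA2, -0.11 to 0.047 for TGA3 and -0.15 to 0.0052 for TGA5. C24 NahG 3 against C24 NahG 2 gave -0.34 to 0.015 for NPR3, -2.20 to 0.37 for NIMIN1, -1.50 to 0.18 for NIMIN2, -0.16 to 0.081 for NIMIN3 and -0.13 to 0.27 for TGA5. TGA6 gave -0.062 to 0.16 for C24 against Ler, -0.18 to 0.041 for the hybrid against C24, -0.10 to 0.066 against Ler and -0.12 to 0.042 against the mid-parent. Against the mid-parent NPR3 gave -0.039 to 0.36, NIMIN2 -0.42 to 0.16 and TGA2 -0.043 to 0.057, and the hybrid against Ler NahG gave -0.0019 to 0.11 for TGA2. The cause was not tested.

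The labels do not say that replicate numbers pair the samples. Deviations of same-numbered libraries had r of -0.18 to 0.42 among first-stage pairs, beside -0.36 to 0.32 for different numbers. The later groups have 2 libraries each, so deviations within a group mirror each other and each r occurs again among the 6 same-numbered pairs. It was 0.126, 0.118 or 0.0284, with the same values below 0 for different numbers, so these pairs are not separate evidence of pairing. With the replicate number as a block, 7 of the 10 genes were called between hybrid and Ler in place of 6, and the counts of the other 9 comparisons were unchanged. Over all genes the block moved the count of calls from 1651 to 2294 for C24 NahG 2 and from 2062 to 3069 for C24 NahG 3 against C24B. The NIMIN1 and NIMIN2 values in transgenic plants are limited by depth, at 1 to 45 reads a library.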
